A study of Mus musculus with 56 samples.

Results

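The 719 regions described here are H2A.Z peaks of mouse embryonic stem cells that lie in introns or between genes, fall on a CpG island, and had lower H2A.Z after doxycycline. They were chosen by the authors' list of lower peaks and its annotation: a listed peak was taken where its class was intron or intergenic and its detailed annotation began with CpG. They are 719 of 61420 H2A.Z peaks, of which 9077 were on the lower list (14.8%), 318 on the higher list and 52025 on neither. Since being lower was the condition for entry, that share is given for scale only, and neither the lower status, the class nor the CpG label is a result. The label is limited to these 2 classes: none of the 3884 lower peaks of other classes carried it, and peaks on neither list have no annotation, so how many CpG island peaks of the same classes were not lower is unknown here.

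The cells were the line RHKI, made from E14Tg2a embryonic stem cells and carrying an HA-Rnaseh1 knock-in in both groups. H2A.Z had 4 control libraries and 4 libraries of cells given 500 ng/ml doxycycline for 48 hours to induce the transgene, and every culture was kept in 2i/LIF medium: PD0325901, a MEK inhibitor, at 1 µM, CHIR-99021, a GSK3 inhibitor, at 3 µM, LIF, and serum (FBS) at 2%. The assay was CUT&Tag, in which an antibody against H2A.Z brings a transposase to the chromatin it marks, and the treated against the untreated cells ask where H2A.Z changes when RNase H1 is present in excess. A single line was used, and no line without the knock-in given doxycycline is used here, so an effect of the drug alone cannot be told apart from that of the transgene. The values deposited for the peaks are positions and annotations, with no count, fold change or p-value. The depth of the 8 libraries and the spread between replicates are therefore unknown here, no comparison of the conditions could be tested, and neither the identity of the cells nor the induction of Rnaseh1 was measured. Lower means lower in treated than in control cells, a direction taken from the name of the list.

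CpG islands are stretches of GC-rich DNA that kept their CpG dinucleotides, mostly because they are unmethylated in the germ line. Most lie at promoters, and those without an annotated promoter are called orphan islands, many of which start transcripts or act as enhancers in some tissue. H2A.Z is a variant of histone H2A that flanks active starts and, in embryonic stem cells, also covers the islands of developmental genes held by Polycomb. R-loops, in which RNA pairs with its template and displaces the other DNA strand, form readily at transcribed islands, and RNase H1 removes them by cutting the RNA.

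Sequences from 7 island peaks are shown first so that letters inside peaks with a CpG label can be seen. Each lies inside an island peak that the annotation placed in an intron or between genes. Each is the DNA just before an annotated RefSeq start, which was a condition of the choice and holds for 210 of the 719 peaks. The bounds of the islands are not among the values used here, so a run need not lie wholly on the island. They were picked as the widest or most distant peaks, and as the widest of the gene lists with most peaks, that wholly hold the 300 bases around a RefSeq start. Each run has the 250 bases before the start, 5′ to 3′ on the strand of the gene, from RefSeq on GRCm38.p6, with every CpG dinucleotide in capitals.
Gm38708, in the peak at Gata2: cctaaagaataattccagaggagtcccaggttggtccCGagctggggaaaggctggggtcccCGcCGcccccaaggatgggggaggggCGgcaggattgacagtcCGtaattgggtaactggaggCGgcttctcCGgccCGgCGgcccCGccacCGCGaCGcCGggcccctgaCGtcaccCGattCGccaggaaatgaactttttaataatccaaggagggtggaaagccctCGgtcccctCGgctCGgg
Gm36470, in the peak at Cdk6: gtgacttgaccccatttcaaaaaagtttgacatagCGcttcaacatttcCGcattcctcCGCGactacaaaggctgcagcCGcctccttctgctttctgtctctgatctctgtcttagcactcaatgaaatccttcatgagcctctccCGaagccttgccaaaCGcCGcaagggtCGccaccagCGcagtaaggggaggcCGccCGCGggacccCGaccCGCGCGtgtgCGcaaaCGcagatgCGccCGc
Hmx2: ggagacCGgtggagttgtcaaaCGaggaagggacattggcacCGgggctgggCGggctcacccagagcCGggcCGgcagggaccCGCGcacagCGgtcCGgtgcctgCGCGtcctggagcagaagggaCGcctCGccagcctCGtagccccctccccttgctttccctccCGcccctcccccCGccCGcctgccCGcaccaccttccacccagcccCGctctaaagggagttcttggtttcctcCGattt
Sema6b: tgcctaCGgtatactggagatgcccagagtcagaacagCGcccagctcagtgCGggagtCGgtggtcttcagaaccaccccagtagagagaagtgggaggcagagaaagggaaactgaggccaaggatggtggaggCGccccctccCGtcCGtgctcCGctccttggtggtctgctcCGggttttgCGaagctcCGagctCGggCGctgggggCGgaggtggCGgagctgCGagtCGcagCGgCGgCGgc
Npas1: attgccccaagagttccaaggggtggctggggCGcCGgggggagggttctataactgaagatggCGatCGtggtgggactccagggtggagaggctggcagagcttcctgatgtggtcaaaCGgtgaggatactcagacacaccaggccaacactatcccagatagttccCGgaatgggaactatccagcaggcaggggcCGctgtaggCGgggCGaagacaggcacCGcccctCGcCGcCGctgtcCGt
Zfp398: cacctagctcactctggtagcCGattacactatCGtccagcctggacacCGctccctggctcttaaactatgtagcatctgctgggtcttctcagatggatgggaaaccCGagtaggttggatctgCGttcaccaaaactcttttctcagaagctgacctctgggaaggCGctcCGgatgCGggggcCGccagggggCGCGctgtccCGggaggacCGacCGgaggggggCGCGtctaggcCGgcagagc
Gm40881, in a peak far from any gene of the authors' annotation: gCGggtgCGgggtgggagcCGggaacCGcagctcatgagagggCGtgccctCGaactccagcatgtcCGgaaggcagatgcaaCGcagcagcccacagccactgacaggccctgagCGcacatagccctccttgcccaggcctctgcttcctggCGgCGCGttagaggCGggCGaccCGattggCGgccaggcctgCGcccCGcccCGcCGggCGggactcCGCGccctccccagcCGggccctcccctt

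The run before Gm38708 is chr6:88197384-88197633 on the minus strand, within the 6869 bp peak chr6:88193617-88200485, and holds 20 CpGs at 64.4% GC. That before Gm36470, chr5:3342253-3342502 on the minus strand, lies in the intergenic peak upstream of Cdk6 and has 21 CpGs at 58.4% GC. The run before Hmx2 is chr7:131554043-131554292, plus strand, with 21 CpGs, and that before Sema6b is chr17:56140344-56140593, minus strand, with 20 CpGs at 66.0% GC. Npas1 (chr7:16476781-16477030, minus strand) had 14 CpGs and Zfp398 (chr6:47835411-47835660, plus strand) had 17, while Gm40881 (chr12:20311963-20312212, plus strand) had the most, 24 at 73.2% GC. CpGs were thus present at every start, at an observed over expected ratio from 0.589 before Npas1 to 1.03 before Gm36470; the ratio is 1 where C and G follow each other as often as their frequencies predict.

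Of the 719 island peaks, 538 were intronic and 181 intergenic. They made up 21.3% of the 2523 lower intronic peaks (95% exact Clopper-Pearson interval 19.7 to 22.97%) and 6.78% of the 2670 lower intergenic peaks (5.85 to 7.80%); these and later intervals cover the counting of peaks only. None of the 308 higher peaks of the same classes had a CpG label, which allows a share of up to 0.974%. The island peaks matched a RefSeq symbol in 716 cases, for 686 distinct genes.

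Most of the intronic island peaks lay just behind a gene's start. The distance from the peak centre to the annotated transcription start site (TSS) had a median of 434 bp for intronic peaks, with quartiles of 271 and 930 bp, and of 26156 bp for intergenic peaks, with quartiles of 9668 and 66416 bp. Intron 1 held 443 of the 538 intronic peaks (82.3%, 78.9 to 85.5%), against 728 of the 1985 other lower intronic peaks (36.7%, 34.6 to 38.8%). Within 2 kb of an annotated TSS it held 416 of 442 intronic island peaks (94.1%, 91.5 to 96.1%). Beyond 2 kb it held 27 of 96 (28.1%, 19.4 to 38.2%). The higher share thus came from island peaks near a TSS, and the other lower intronic peaks were not split by distance. In all, 451 of the 719 (62.7%, 59.1 to 66.3%) were centred within 2 kb of an annotated TSS and 370 (51.5%, 47.7 to 55.2%) were wide enough to reach it. The class is given by the centre of a peak. Lower promoter peaks reached from 996 bp upstream of a TSS to 884 bp downstream, with a median distance of 101 bp. Distances of the island peaks began at 104 bp, and the 410 within 1 kb were all intronic and downstream. Peaks centred just upstream of a start fall in the promoter class, so this side is set by the class and is not a result. Of the 370, 368 were intronic by their centre and 2 intergenic.

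**Figure D1:**
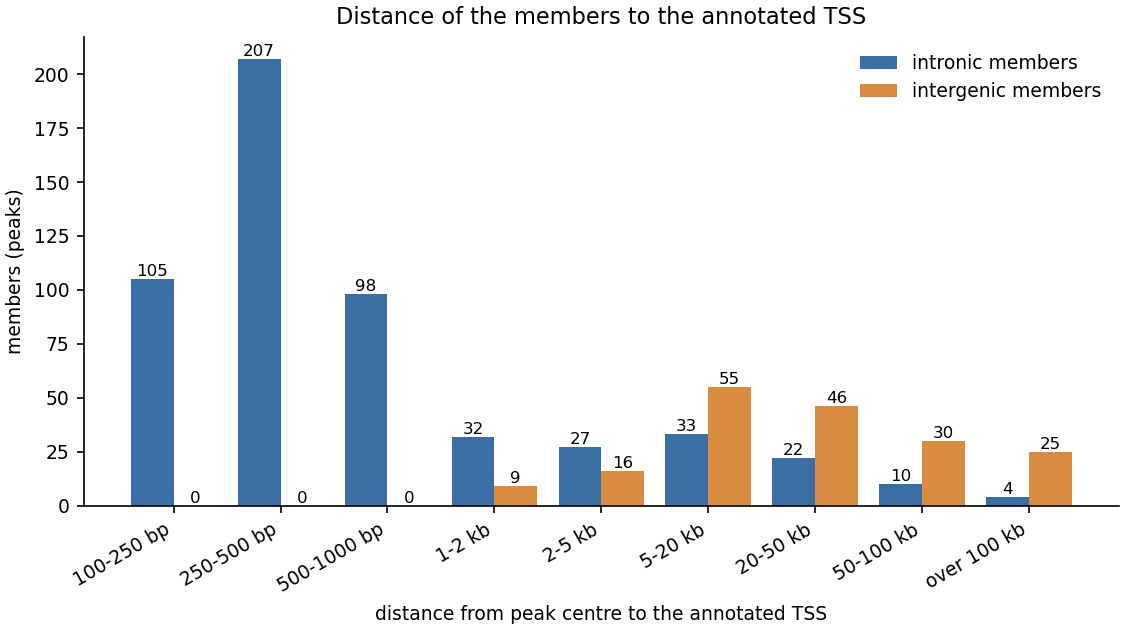
Number of island peaks (vertical axis) by distance from the peak centre to the annotated TSS (horizontal axis, in classes), for the 538 intronic and 181 intergenic peaks. Intronic peaks were most frequent between 250 and 500 bp, with 207, and intergenic peaks between 5 and 20 kb, with 55.

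Of the 268 peaks centred beyond 2 kb of a TSS, 96 were intronic and 172 intergenic. Their median distance was 21765 bp (95% interval of the median from order statistics 16507 to 26319 bp), and 69 lay beyond 50 kb. Many still touched an annotated gene. A RefSeq start window lay wholly inside 21 of them, 17 intergenic and 4 intronic. Centred within 1 kb of a gene end, meaning the start or the end of a RefSeq protein-coding or lncRNA gene, were 63. Setting both aside left 200 of the 719 (27.8%, 24.6 to 31.2%) as orphan by position, 84 intronic and 116 intergenic, a reading that was chosen after the data were seen. Most of the regions are therefore called here by their class and island label and not as orphan islands.

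The starts inside distant peaks belonged to 11 lncRNA genes and 12 protein-coding genes, named here after their values were seen. Examples are Zmiz1os1, antisense to the transcriptional coregulator gene Zmiz1, in the peak chr14:25377425-25379434 that lies 80756 bp upstream of the annotated start of Zmiz1. Begain, which encodes a postsynaptic density protein, had a RefSeq start inside the peak chr12:109052922-109053969, 14772 bp into the gene. Elf4, an ETS factor of lymphocytes, likewise had a start in the peak chrX:48453968-48455023, 8637 bp from the TSS the annotation used. For Begain and Elf4, this start and the TSS from which the authors' annotation measured differ.

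The most distant named intronic peak was in intron 7 of Rims1, a scaffold of the presynaptic active zone, at chr1:22533183-22534282 and 272271 bp from the TSS. Tenm3, an adhesion protein of neuronal wiring, had a peak in intron 2 at 119016 bp, and Stab2, a scavenger receptor for hyaluronan, in intron 31 at 98997 bp. Peaks assigned to Edn2, an endothelin, and Engase, a glycosidase, lay 128236 and 92973 bp away and inside other genes: intron 2 of Hivep3, a zinc finger factor, and intron 3 of Rbfox3, the splicing factor known as a marker of neurons. Among intergenic peaks the most distant with a named gene were Hpcal1, a neuronal calcium sensor, with peaks at 302109 and 191202 bp, Tex16 at 198054 bp, Eya1, a cofactor of ear and kidney development, at 196730 bp, and Gli2, a transcription factor of Hedgehog signalling, at 136110 bp.

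Some distant peaks lay inside a gene other than the one they were assigned to. Of the 537 intronic peaks whose transcript had a RefSeq symbol, 34 lay in a gene other than that of the nearest TSS, and 28 of these were among the 96 beyond 2 kb (29.2%, 20.3 to 39.3%). Both peaks assigned to the lncRNA 9530036O11Rik lay inside Shh, the Hedgehog ligand of neural tube and limb: a 4601 bp peak in intron 1 (chr5:28462504-28467104) and a 2284 bp peak in intron 2 (chr5:28457974-28460257), separated by 2246 bp. The 4601 bp peak also held the RefSeq start window of 9530036O11Rik itself. Its centre lay 2180 bp from the annotated TSS, and the peak was wide enough to reach it. Other host genes, named after their values were seen, were Auts2, a regulator of neuronal development, with a peak in intron 5, Zmiz1 in intron 6, Trio, a gene of axon guidance, in intron 48, and Nfix, a nuclear factor I gene, in introns 1 and 7. Slc22a7 had 2 assigned peaks, both in intron 13 of the kinase gene Ttbk1.

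The island peaks were wide for their class. Their median width was 1288 bp (95% interval 1193 to 1351 bp), with quartiles of 886 and 1760 bp, against 883 bp for the 4474 other lower intronic and intergenic peaks and 1292 bp for the 1713 lower promoter peaks. Peaks of the minimum width of 501 bp were 7.23% of the island peaks, 21.5% of the other lower peaks of the same classes and 8.76% of the lower promoter peaks. The median was 1313 bp within 2 kb of a TSS, 1238 bp beyond it and 1208 bp for the 200 away from starts and gene ends, against 791 bp for the 3698 other lower intronic and intergenic peaks picked by the same distances. At the upper end the order changed, with 5 island peaks (0.695%) and 94 of the other lower peaks (2.10%) at 5 kb or more. Width is the only measure of extent in these data and says nothing of height.

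**Figure D2:**
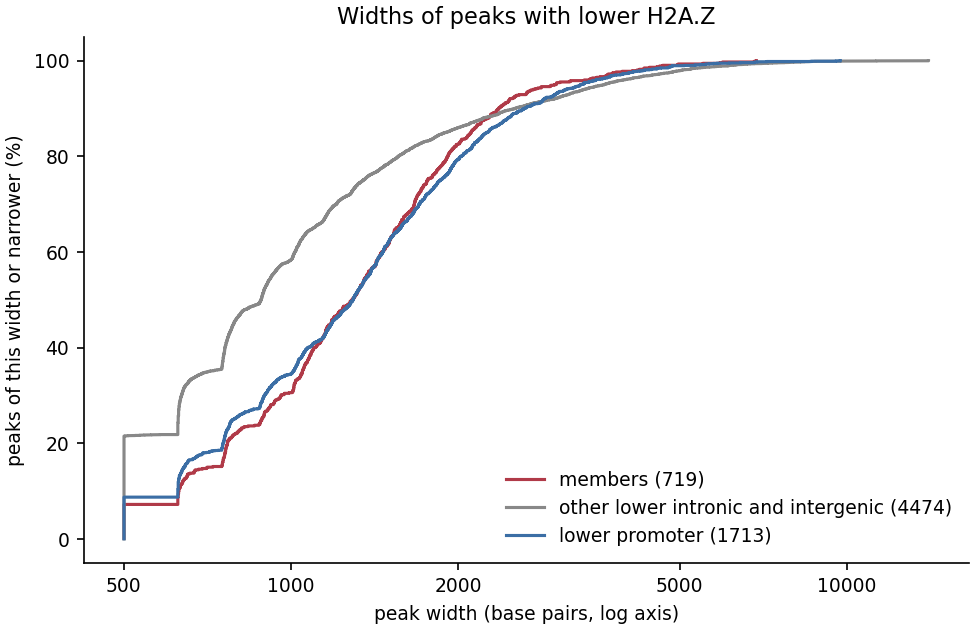
Cumulative share of peaks (vertical axis, %) against peak width (horizontal axis, base pairs, log axis) for the island peaks, the other lower intronic and intergenic peaks and the lower promoter peaks. The medians were 1288, 883 and 1292 bp, and the curve of the island peaks runs along that of the promoter peaks.

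Each of the 10 widest intronic peaks at named genes reached the annotated TSS. Gata2, a zinc finger factor of blood stem cells, had the widest at 6869 bp, and Bcl11a, a zinc finger repressor of fetal globin genes, the next at 6809 bp (chr11:24075724-24082532). Nr4a2, an orphan nuclear receptor of dopamine neurons, had 5971 bp (chr2:57111361-57117331), and Bcan, a proteoglycan of the brain matrix, 5905 bp (chr3:87997047-88002951). Hmx2, a homeodomain factor of the inner ear, followed with 5506 bp and Foxo3, a forkhead factor held in check by insulin signalling, with 4970 bp. Sema6b, a transmembrane semaphorin, had 4955 bp, Adgrb1, an adhesion receptor of neurons and phagocytes, 4662 bp, Irx2, an Iroquois homeodomain factor, 4553 bp, and Abhd8, a hydrolase-domain gene, 4233 bp. Their centres lay between 298 bp (Abhd8) and 1991 bp (Adgrb1) from the TSS.

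The widest intergenic peaks were narrower and mixed in position. That of Adgrl2, a latrophilin adhesion receptor, was 4411 bp wide and lay 34036 bp upstream of the annotated TSS, with its centre 425 bp from a RefSeq gene end. Cdk6, a kinase of the G1 phase, had 4313 bp at 1184 bp upstream, and Kif26a, a kinesin-like protein of enteric neurons, 3483 bp at 1063 bp upstream; both peaks held the gene's own RefSeq start window. By contrast Ulbp1, a ligand of the natural killer receptor NKG2D, had 3697 bp at 81368 bp, and Scrt2, a zinc finger repressor of neurons, 2752 bp at 33093 bp, both away from starts and gene ends. Prdm12, a factor of pain-sensing neurons, had 2998 bp at 3377 bp upstream, and Tlk2, a kinase of the histone chaperone ASF1, 2672 bp at 12955 bp upstream, in the same position. Grm4, a metabotropic glutamate receptor, had 2925 bp with a RefSeq gene end at 625 bp, Csrp1, a LIM-domain protein of smooth muscle, 2472 bp with the start of the lncRNA Gm32835 inside, and Nup210, a nuclear pore protein, 2431 bp with a gene end at 66 bp.

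Position was also counted against the starts and ends of RefSeq genes, in groups made by the authors' classes and distances. Of the island peaks, 416 (57.9%, 54.2 to 61.5%) were centred within 1 kb of a gene end, against 11.4% (10.5 to 12.3%) of the other lower intronic and intergenic peaks, 84.9% (83.1 to 86.5%) of the lower promoter peaks and 18.6% of the peaks on neither list. Within 2 kb of a TSS the share was 78.3%, for intronic peaks beyond it 8.33% (3.67 to 15.8%), and for intergenic peaks beyond it 32.0% (25.1 to 39.5%). The share was thus higher for the intergenic island peaks beyond 2 kb than for the other lower peaks, and not for the intronic ones. The groups are unlike, because the 11.4% covers both classes at every distance, with 525 of 4474 peaks within 2 kb of a TSS. The intervals cover the counting of peaks, and no difference was tested. Of the 181 intergenic peaks 79 (43.6%) lay inside the body of a RefSeq protein-coding or lncRNA gene, although the authors' annotation placed them between genes.

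Neighbouring peaks differed with distance from the start. The nearest other H2A.Z peak was itself lower for 199 of the 719 (27.7%, 24.4 to 31.1%), close to the 29.6% over all lower peaks and above the 11.4% of peaks on neither list. Among island peaks within 2 kb of a TSS it was 21.3% (17.6 to 25.4%), and among those beyond it 38.4% (32.6 to 44.5%), with 46.9% (36.6 to 57.3%) for the intronic and 33.7% (26.7 to 41.3%) for the intergenic ones. For the 200 away from starts and gene ends it was 40.5% (33.6 to 47.7%), against 27.7% (26.3 to 29.2%) for the other lower intronic and intergenic peaks in such positions. Another lower peak lay within 5 kb of 72 island peaks (10.01%, 7.92 to 12.4%), against 13.02% of all lower peaks and 12.9% of the other lower intronic and intergenic ones. It did so for 26 of the 96 distant intronic ones (27.1%, 18.5 to 37.1%) and for 23 of the 172 distant intergenic ones (13.4%, 8.67 to 19.4%). A single island peak had a higher peak as its nearest neighbour. Neighbours share a locus, so these peaks are not independent of one another.

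**Figure D3:**
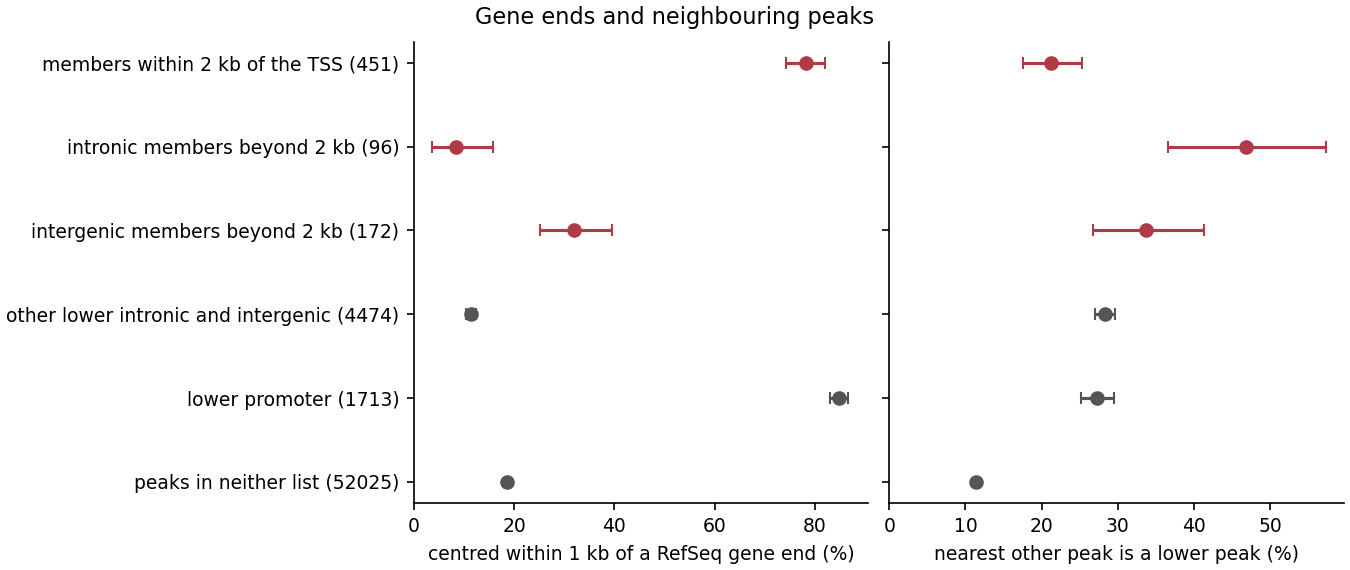
Left, share of peaks centred within 1 kb of the start or the end of a RefSeq gene (horizontal axis in %). Right, share whose nearest other peak is a lower peak (%). Exact 95% intervals are shown for island peaks (red) and other peaks (grey), with the number of peaks in brackets. Island peaks within 2 kb of a TSS sit near the lower promoter peaks on the left, at 78.3 and 84.9%, and distant intronic island peaks sit highest on the right, at 46.9%.

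Several genes carried more than 1 island peak, 25 in all, of which 22 had 2. Spag6, a protein of the sperm tail and cilia, had 3 on chromosome 2: a 1208 bp peak 109 bp into the gene and 2 intergenic ones 4585 and 9251 bp upstream, with gaps of 3028 and 3513 bp between them. At Gata2 a second peak, 1397 bp wide, lay 2415 bp from the wide one and 3388 bp upstream of the TSS nearest to it. Ptch1, the receptor of Hedgehog ligands, had a 1653 bp peak centred 404 bp downstream of a TSS and, 3759 bp away, a 629 bp peak that lay 2421 bp upstream of the TSS nearest to it. Barhl2, a homeodomain factor of retina and brain, had 2 peaks of 882 and 1019 bp that lay 103157 and 116500 bp upstream. Of the 686 genes, 40 (5.83%) also had a lower promoter peak, 76 a lower exon peak and 9 a lower 5′ UTR peak, and 244 (35.6%) had any other lower peak. Among the 248 genes with a peak beyond 2 kb, 34 (13.7%) had a lower promoter peak. Any lower peak within 2 kb of a TSS, island peaks included, was present for 86 of them (34.7%). A peak has a single class, so an island peak that reaches a start is not counted among the promoter peaks. The same shares over the genes of all lower peaks are not given here.

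By the gene of the nearest TSS, genes of the lists made up a larger share of the distant island peaks than of those near a start. The 33 gene lists used here, which were written with earlier results of these data known and so give a description and no test, took in 131 of the 719 (18.2%, 15.5 to 21.2%), against 14.3% (13.6 to 15.05%) of all lower peaks. For peaks at most 2 kb from a TSS the share was 14.9% (11.7 to 18.5%), beyond 2 kb it was 23.9% (18.9 to 29.4%), with 64 of 268 peaks, and it was 27% (20.98 to 33.7%) for those away from starts and gene ends, with 54 of 200 peaks. Other lower intronic and intergenic peaks in such positions were on a list in 13.8% (12.7 to 14.9%). Assigned to the nearest RefSeq gene body in place of the nearest TSS, 111 of the 719 island peaks were on a list. Shares by distance under that assignment are not given here, so the difference between distant and near peaks may depend on the assignment.

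DNA-binding factors supplied 68 of the listed peaks, out of 553 lower peaks of these genes (12.3%, 9.68 to 15.3%), beside the 7.92% that island peaks make of all lower peaks. Homeobox genes outside the Hox clusters had 20 of 166, of which 13 lay beyond 2 kb of a TSS; assigned to the nearest RefSeq gene body in place of the nearest TSS, the list had 13 peaks. The widest were at Hmx2, Irx2, Tlx3, a selector of excitatory neurons (3721 bp), and Dlx2, a factor of forebrain interneurons (2935 bp, 1022 bp into the gene). Hox genes, which set position along the body axis, had 4 of 20: Hoxa11 (1510 bp, 7440 bp upstream), Hoxa7 (1473 bp, 3274 bp upstream), Hoxc4 (896 bp, at 51860 bp) and Hoxb7 (769 bp, at 492 bp). Only that of Hoxb7 was within 2 kb of a TSS, and by nearest RefSeq gene body the list had 2 peaks.

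Basic helix-loop-helix genes, which act in neural and muscle fate, had 9 of 63, the widest at Npas1, a factor of interneurons (3599 bp), Neurog2, a proneural factor (2532 bp), Nhlh2, of hypothalamic neurons (1959 bp), and Id3, an inhibitor of the family (1648 bp, 8573 bp upstream). Zfp zinc finger genes had 17 of 148, led by Zfp703 (4112 bp), Zfp369 (2029 bp), Zfp385a (1533 bp) and Zfp385c (1513 bp). Forkhead genes had 4 of 52, at Foxo3, Foxd1 (1343 bp), Foxf1 (1334 bp) and Foxk1 (1039 bp), the last 3 intergenic. Nuclear receptor genes had 4 of 41, at Nr4a2, Nr5a1, the master factor of steroid-producing cells (4192 bp), Rora (2373 bp) and Nr2e1 (501 bp).

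Gata genes had 3 of 8, the pair at Gata2 and an intergenic peak of 1144 bp 6435 bp upstream of Gata4, a factor of heart and endoderm; by nearest RefSeq gene body the list had 1 peak. Sox genes had 3 of 20, at Sox17, of endoderm and vessels (2409 bp), Sox18 (2115 bp) and Sox13 (2022 bp). T-box genes had 2 of 17, at Tbr1 of cortical neurons and Tbx20 of the heart, and Zic and Gli genes 2 of 5, at Glis1 and Gli2. Runx genes had none of 13, which allows a share of up to 23.1%. With so few peaks a list the intervals are wide: for the Sox genes it was 3.21 to 37.9%, which covers the share over all lower peaks. For the Gata and the Hedgehog pathway genes alike it was 8.52 to 75.5%, which begins above that share. Each of these lists has only 3 peaks at 2 genes, with a neighbouring pair at Gata2 and at Ptch1. Their peaks are not independent, so no enrichment is read from the interval.

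**Figure D4:**
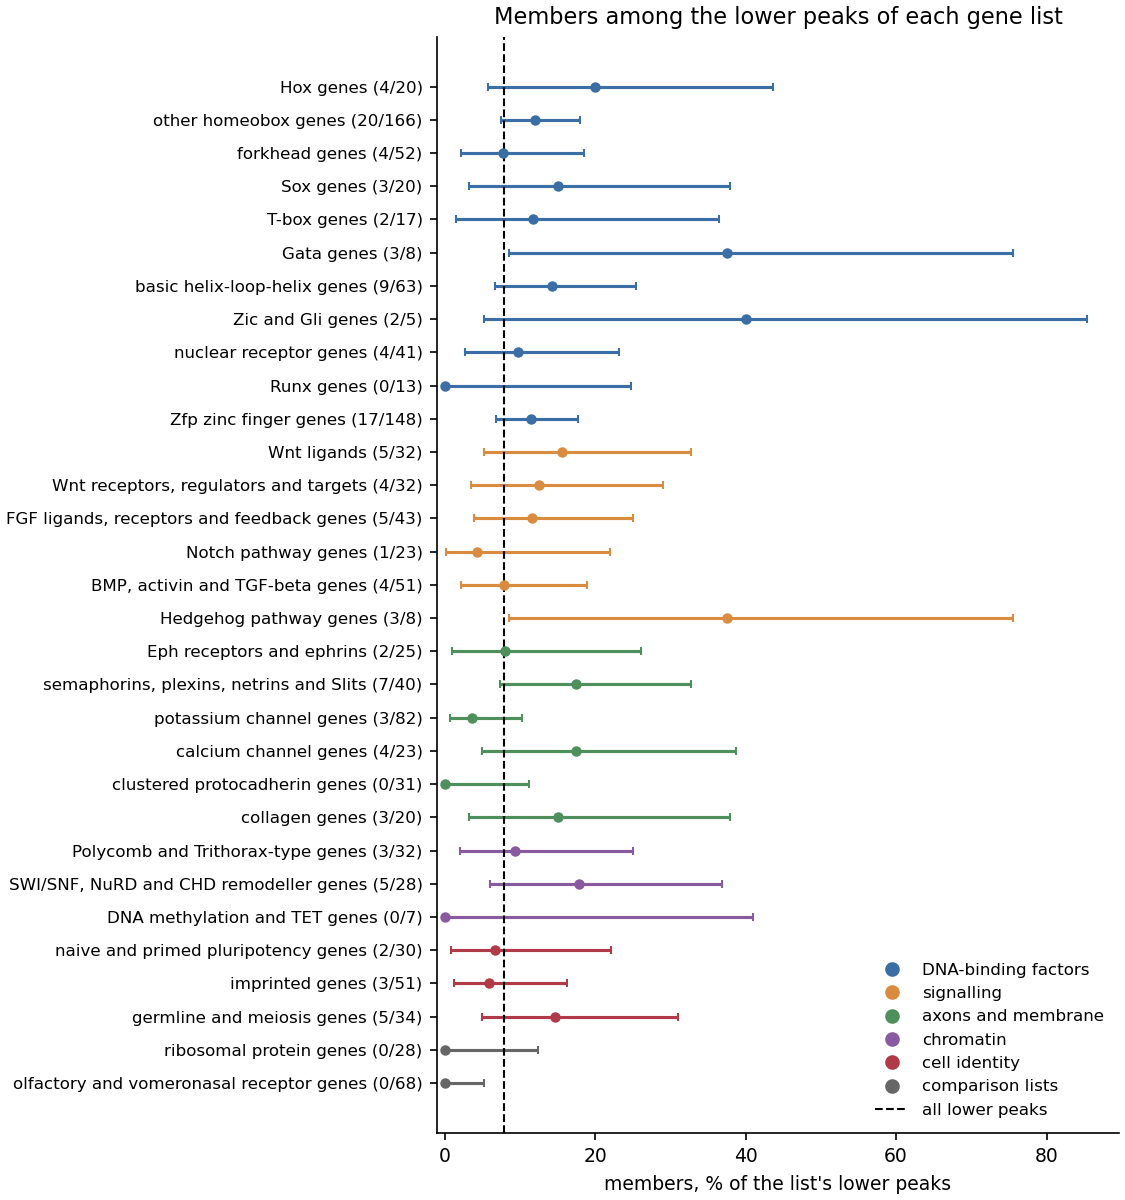
Island peaks as a share of the lower peaks assigned to each gene list reported here (horizontal axis, %), with exact 95% intervals and the counts in brackets; the dashed line is the share over all lower peaks, 7.92%. Homeobox genes outside the Hox clusters lie at 12.05% and clustered protocadherin, ribosomal protein and olfactory receptor genes at 0.

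Signalling genes had 26 of their 239 lower peaks on an intronic or intergenic island (10.9%, 7.23 to 15.5%). The interval covers the 7.92% over all lower peaks. Wnt ligands had 5 of 32, at Wnt3 (2467 bp, 36206 bp into the gene), Wnt1 (1918 bp, at 2206 bp), Wnt3a (1527 bp), Wnt7b (1379 bp, 53049 bp upstream) and Wnt9b (875 bp); the CHIR-99021 in both groups' medium activates this pathway. Receptors, regulators and targets of the pathway had 4 of 32, at Dkk3 (2153 bp), the inhibitor Sfrp2 (1446 bp) and the receptors Ror2 (1668 bp) and Lgr6 (896 bp). FGF genes had 5 of 43, among them the ligand Fgf9 (2465 bp), the receptor Fgfr2 (1111 bp), the feedback inhibitor Spry4 (1057 bp) and the target Etv4 (1047 bp).

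Hedgehog pathway genes had 3 of 8, both peaks of Ptch1 and one 30487 bp upstream of Cdon, a coreceptor. The Shh peaks are outside this count, since they were assigned to the lncRNA 9530036O11Rik; by nearest RefSeq gene body the list had 5 peaks. BMP, activin and TGF-beta genes had 4 of 51, at Smad5 (1682 bp), Fstl4 (1665 bp), Tgfbr3 (1430 bp) and Acvr1b (501 bp). Notch genes had 1 of 23, at the coactivator Maml3 (2690 bp).

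Genes of axons and membranes had 19 of 221 lower peaks (8.60%, 5.26 to 13.1%), close to the 7.92% over all lower peaks. Semaphorins, plexins, netrins and Slits, the cues of axon guidance, had 7 of 40, of which 6 lay within 2 kb of a TSS: the widest were at Sema6b, Sema5b (2779 bp), Sema3f (1668 bp) and Sema6d (1522 bp). Calcium channel genes had 4 of 23, at Cacnb2 (1907 bp), Cacna1b (1782 bp), Cacna1h (1596 bp) and Cacna1e (1224 bp), and potassium channel genes 3 of 82, at Kcng2, Kcnk4 and Kcng1. Collagen genes had 3 of 20, at Col8a2, Col15a1 and Col9a3, and Eph receptors and ephrins 2 of 25, at Ephb1 and Efnb1. Clustered protocadherin genes had none of 31, which allows up to 9.68%. Some lower peaks of these genes lay in exons, which the rule leaves out, so their absence here says nothing of islands there.

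Chromatin genes had 9 of 101 (8.91%, 4.16 to 16.2%), close to the 7.92% over all lower peaks. SWI/SNF, NuRD and CHD remodeller genes had 5 of 28: Bcl11a, Smarca2, a catalytic subunit of SWI/SNF (3674 bp), Bcl11b (1626 bp), Chd9 (1596 bp) and Arid2 (1496 bp); by nearest RefSeq gene body there were 3. Polycomb and Trithorax-type genes had 3 of 32, at Bcor (2288 bp, intergenic, at 81362 bp), Pcgf5 (1872 bp) and Cbx2, a reader of H3K27 methylation (1143 bp). DNA methylation and TET genes had none of 7, which allows up to 42.9%.

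Genes of cell identity had 10 of 115 (8.70%, 4.25 to 15.4%), close to the 7.92% over all lower peaks. Pluripotency genes had 2 of 30, at Etv4 and Socs3, the feedback inhibitor of LIF signalling (776 bp, at 19508 bp). Germline and meiosis genes, many of which have islands that are methylated outside the germ line, had 5 of 34, and 4 of these lay within 2 kb of a TSS, at Kit (1686 bp), Taf7l (954 bp), Sycp1 (944 bp) and Ddx4 (650 bp); the fifth, assigned to Piwil1, lay in intron 14 of Rimbp2. Imprinted genes had 3 of 51. The peak of Airn, the lncRNA that silences Igf2r in cis on the paternal copy, was 639 bp wide at chr17:12742014-12742652, 1022 bp from the TSS, and those assigned to Cdkn1c, a cell cycle inhibitor, and Ano1, a chloride channel, were 934 and 636 bp wide at 15099 and 60082 bp. Ribosomal protein genes had none of 28 and olfactory and vomeronasal receptor genes, which lie in CpG-poor clusters, none of 68, which allow up to 10.7 and 4.41%.

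The peak most distant from a TSS, at 873564 bp, lay in a stretch of chromosome 12 with several distant island peaks, noticed after the data were seen. From chr12:17881155 to chr12:20921800, over 3.04 Mb, the set had 19 peaks, of which 14 were lower and 10 were island peaks. All 10 were intergenic, from 105248 to 873564 bp from the nearest annotated TSS, and assigned to Hpcal1 (2 peaks), 5730507C01Rik and 1700030C10Rik (4 each). Their widths ran from 629 to 2290 bp. Of the 9 steps between the centres of neighbouring island peaks, 5 were between 95 and 120 kb, with a smallest of 99.8 kb, a median of 115 kb and a largest of 1040 kb.

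**Figure D5:**
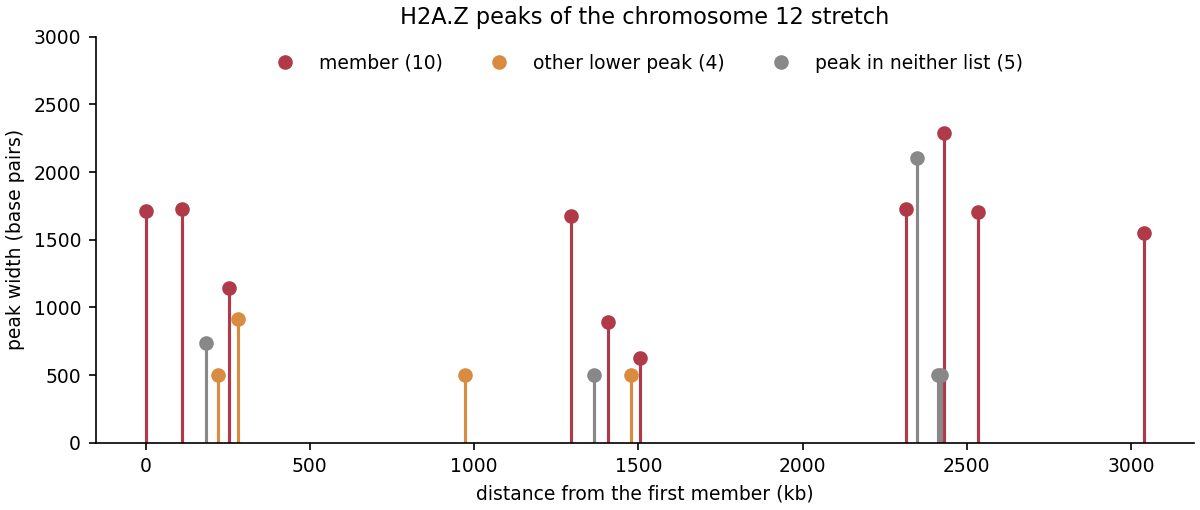
Width of every H2A.Z peak of the chromosome 12 stretch (vertical axis, base pairs) against its distance from the first island peak there (horizontal axis, kb). The 10 island peaks (red) are 629 to 2290 bp wide, with 4 other lower peaks and 5 peaks on neither list between them.

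In 3 of these 10 peaks lay the start of a RefSeq protein-coding gene model, Gm9222, Gm40881 and Gm10479. The 250 bases before the starts of Gm9222 and Gm10479 are set beside that of Gm40881 above because the runs share long stretches.
Gm9222: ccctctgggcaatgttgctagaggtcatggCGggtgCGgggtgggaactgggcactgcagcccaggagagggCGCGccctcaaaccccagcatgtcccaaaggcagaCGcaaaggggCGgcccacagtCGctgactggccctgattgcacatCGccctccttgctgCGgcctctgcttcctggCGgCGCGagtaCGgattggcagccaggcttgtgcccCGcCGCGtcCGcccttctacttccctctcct
Gm10479: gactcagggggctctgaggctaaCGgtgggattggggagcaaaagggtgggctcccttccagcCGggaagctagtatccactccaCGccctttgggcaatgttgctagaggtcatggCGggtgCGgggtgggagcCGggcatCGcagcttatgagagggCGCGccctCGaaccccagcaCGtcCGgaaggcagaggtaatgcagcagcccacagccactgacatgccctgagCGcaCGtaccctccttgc
The first is chr12:17881623-17881872 with 17 CpGs and the other chr12:20415271-20415520 with 14, both on the plus strand. Gm9222 and Gm10479 have a run of 41 identical bases, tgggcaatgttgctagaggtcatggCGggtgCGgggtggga, and Gm40881 shares 23 identical bases with each of the others. These starts therefore have sequence in common over distances of megabases. How reads that fit more than 1 of these places were treated is not given in the sources used here, and whether the lower signal belongs to each of these peaks was not tested.

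By chromosome, island peaks were a median of 8.07% of the lower peaks of a chromosome, over chromosomes 1 to 19 and X, and ranged from 5.38% (3.401 to 8.03%) on chromosome 6 to 14.6% (10.8 to 19.3%) on chromosome 13, where they numbered 42 of 287. Chromosome Y had 5 lower peaks and none of this kind.

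Sequence content was read where a RefSeq start window lay wholly inside a peak, which was so for 210 of the 719 (29.2%), 191 intronic and 19 intergenic. These windows are starts, so they describe the islands that touch a start and not the orphan ones. Their 300 bases had a median GC content of 66.0%, 7.67 CpGs per 100 bases and an observed over expected CpG ratio of 0.716 (95% interval of the median 0.702 to 0.747). The ratio was 0.769 in 1172 windows of lower promoter peaks, 0.639 in 6473 windows of peaks on neither list and 0.384 over all 32851 windows. The windows inside island peaks thus had the CpG content of islands, and a lower ratio than those inside lower promoter peaks.

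GC skew, the excess of G over C on the gene's strand as a share of both, is known to favour R-loops when it is positive just downstream of a start. It was positive in 107 of the 210 windows (51.0%), in 53.0% of those of lower promoter peaks and in 52.6% of all windows, with a median of 0.0050 in the windows of island peaks. Most of each window lies upstream of its start, so skew along the transcribed part was not measured. Of the motifs searched on both strands, the GC box GGGCGG, bound by Sp factors, was in 77.6% of the windows of island peaks. It was in 73.3% of those of lower promoter peaks, 53.3% of those of peaks on neither list and 35.7% of all windows. The CCAAT box, CCAAT, was in 33.3%, against 37.1% for peaks on neither list and 37.4% of all windows. The TATA box, TATAAA, was in 2.38%, against 7.12% for peaks on neither list and 13.6% of all windows. None of these motifs contains another. A match is a description of the letters, and GC-rich letters come with the CpG label that chose the regions.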

How the data were processed

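CUT&Tag of H2A.Z was analysed in 4 control and 4 doxycycline libraries, and 48 other libraries of the series are not analysed here. The submitters' processing notes name GRCm38 and the tools deepTools, HOMER, Picard, Bowtie2 and Trimmomatic without saying what each did. Not given in the sources used here are the peak caller, how replicates entered it, and the test and threshold that made the lists. The annotation came from annotatePeaks.pl of HOMER on mm10, per the file headers. Positions and distances to the TSS are in base pairs as the authors deposited them; starts count from 1. The lists hold no depth per library.

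All 9077 lower and 318 higher peaks matched a peak of the set exactly. Symbols were read by Entrez ID, gene ends from RefSeq genes and sequences from RefSeq start windows (250 bases before and 50 after a start), all of GRCm38.p6. The design foresaw 300 bases around each peak centre, for which no genome was at hand, so start windows wholly inside a peak were used in their place; where several were inside, the start nearest the centre was taken. Gene names in the text follow a rule: leaving out unnamed gene models, the 10 widest and 5 most distant intronic and intergenic members, genes with 3 or more members, the 4 widest of each gene list, all of shorter lists, and every imprinted gene; other genes, among them Barhl2, Wnt9b, Arid2, Ddx4 and the host genes, were chosen after their values were seen. Of the 33 gene lists, 2 are not reported here, though the counts over all lists include them. The members, rule and lists were chosen with earlier results of these data known, so no test was made over peaks or genes. Shares have 95% exact Clopper-Pearson intervals, medians have 95% order-statistic intervals, and a count of 0 has a limit of 3 counts. The helper functions were tested on simulated data. Alternatives covered distances, widths, windows, gene assignment and chromosome X. Software was Python 3.11.15 with SciPy 1.17.1, pandas 2.3.3, numpy 2.4.6 and matplotlib 3.10.9.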

Additional observations from a re-analysis of the deposited data

How the results depend on the processing

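The number of regions depends most on what counts as orphan. Of 719, 268 remained beyond 2 kb of the annotated TSS and 200 also away from RefSeq starts and gene ends, the last chosen after the data were seen. Between 667 and 709 remained without peaks of the minimum width, without chromosome X, without the chromosome 12 stretch or merged within 5 kb, and 509 without peaks that hold a RefSeq start window. The share at RefSeq gene ends was 57.9%, and 38.5% with a window of 500 bp, 73.6% with 3 kb and 63.0% with genes of every type. The share with another lower peak within 5 kb was 10.01%, and 19.9% within 10 kb and 18.3% beyond 2 kb of a TSS. Beyond 2 kb, 64 of the 131 peaks on a gene list remained, and the median share per chromosome was 2.75% in place of 8.07%. The CpG ratio was 0.716, and 0.696 in the last 200 bases before the start. Median distance (618 to 705 bp), median width (1238 to 1351 bp) and the number of genes (698) moved within their intervals or by less than 1.5 times. Of 22 gene lists, assignment to the nearest RefSeq gene body moved 5 counts by more than 1.5 times: Hox genes from 4 to 2, other homeobox genes from 20 to 13, Gata genes from 3 to 1, Hedgehog genes from 3 to 5 and remodeller genes from 5 to 3. The cut at 2 kb moved 17. No paired analysis was possible because the deposited lists hold no value per library. Depth and replicate spread are unknown, so no peak here has an error of its own.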

Other observations

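For 28 of the 96 distant intronic regions the gene that held the peak was not the gene it was assigned to. Besides those named above, and chosen after their values were seen, distant island peaks lay in intron 11 of Camta1, a calmodulin-binding factor of neurons, in intron 1 of Prdm11, in intron 2 of Ttc28 and in intron 3 of Macrod1, an ADP-ribose hydrolase gene. Their assigned genes were Gm13090, 4631405J19Rik, Mir701 and Otub1, at 39465, 14466, 24943 and 40979 bp. Among the 200 regions away from starts and gene ends, the widest with a named gene were at Adamtsl5 (3941 bp, 6746 bp into the locus) and Adgrb2, an adhesion receptor of neurons (3781 bp, at 14684 bp).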
